A study of Homo sapiens with 7 samples.

Results

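The insulin-like growth factor (IGF) genes described here are IGFBP2, IGFBP3, IGFBP4, IGFBP5, IGFBP6, IGF2, IGF1R, IGF2R, INSR and IRS1, 10 of the 28517 named entries in the tables. They were chosen by name as the IGF binding proteins, 1 ligand, the receptors and the adaptor IRS1. The rule itself uses no measured value, but it was set with earlier results of these data known. RNA sequencing was done on NGP, an established human neuroblastoma line whose MYCN gene is amplified, and on NGP derivatives mutated in ARID1A. The ARID1A protein helps the BAF (SWI/SNF) complex, which moves nucleosomes, to bind DNA. There were 7 libraries: 2 from control NGP, 2 each from ARID1A-/- line 1 and ARID1A-/- line 2, and 1 from an ARID1A+/- line, and all cells grew in medium with puromycin. Replicate 1 of the control and of each null line was prepared with a SMARTer Universal Low Input kit, and replicate 2 and the ARID1A+/- library with KAPA mRNA HyperPrep. The labels give neither the position of the mutations nor the control construct, and the control and ARID1A+/- are 1 cell line each and ARID1A-/- is 2, so the genotype and other differences between these cell lines cannot be told apart. Nothing says that repeat libraries were made from separate cultures. The p-values therefore measure only the spread between libraries, which may be technical.

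IGF2 is a secreted growth factor that signals through the receptor tyrosine kinase IGF1R and through the insulin receptor INSR. IGF2R, the cation-independent mannose 6-phosphate receptor, takes IGF2 to lysosomes and so removes it. The IGF binding proteins hold IGFs outside the cell with high affinity and either block or prolong their action, and IRS1 docks on the active receptors and passes the signal to PI3K. IGF2 is known as an autocrine growth factor of neuroblastoma cells.

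IGFBP3 and IGFBP4 moved furthest among the binding proteins, and IGFBP5, their relative of high level, was not called. The 250 bases before the transcription start of each are shown to let their base composition be compared. They are RefSeq sequences of GRCh38.p14, on the strand of the gene, and 9 of the 10 genes were matched in that table. Capitals mark a GC box (GGGCGG, either strand) or a TATA box (TATAAA, either strand). The coordinates are chr7:45921273-45921522 on the minus strand for IGFBP3, chr17:40443200-40443449 on the plus strand for IGFBP4 and chr2:216695550-216695799 on the minus strand for IGFBP5.
IGFBP3: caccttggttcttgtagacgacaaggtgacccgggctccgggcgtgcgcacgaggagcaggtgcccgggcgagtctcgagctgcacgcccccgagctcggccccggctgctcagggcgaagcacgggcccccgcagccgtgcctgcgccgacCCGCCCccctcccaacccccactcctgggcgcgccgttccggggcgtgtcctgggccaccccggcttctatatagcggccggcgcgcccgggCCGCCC
IGFBP4: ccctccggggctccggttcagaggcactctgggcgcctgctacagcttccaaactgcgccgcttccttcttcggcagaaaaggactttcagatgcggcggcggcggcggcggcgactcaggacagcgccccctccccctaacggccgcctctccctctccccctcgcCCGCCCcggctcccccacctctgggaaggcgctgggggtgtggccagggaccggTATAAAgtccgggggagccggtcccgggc
IGFBP5: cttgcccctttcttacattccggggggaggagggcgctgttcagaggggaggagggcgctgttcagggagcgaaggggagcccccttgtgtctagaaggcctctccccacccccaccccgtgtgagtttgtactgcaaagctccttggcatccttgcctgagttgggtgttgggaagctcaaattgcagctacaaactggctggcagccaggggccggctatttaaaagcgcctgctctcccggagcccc
The IGFBP3 window held 2 GC boxes, whose first bases lay 98 and 6 bases before the start, and 32 CpG dinucleotides. The IGFBP4 window held 1 GC box at 83 bases and 1 TATA box at 29 bases before the start, with 24 CpG. The IGFBP5 window held none of the motifs searched and 8 CpG. None of the motifs overlapped in these windows. GC content was 76% for IGFBP3, 71.6% for IGFBP4 and 61.2% for IGFBP5. Of 27305 promoter windows of the same length, 42.31% held a GC box and 11.13% a TATA box, and the median number of CpG was 11. An E-box (CACGTG) was in 6.49% of all windows and an AP-1 site (TGANTCA) in 6.596%, and neither was in the 3 windows shown.

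The total count per library ran from 24445301 to 43644361. ARID1A mRNA, the check of the targeted gene, had an RPKM (reads per kilobase of the entry, scaled to the total count) of 22.3 and 22.0 for the control, 16.7 and 17.2 for line 1, 14.2 and 13.8 for line 2 and 19.9 for ARID1A+/-. It fell by 0.54 ± 0.09 on the log2 scale over both null lines (SE; edgeR quasi-likelihood test, Benjamini-Hochberg adjusted p = 0.0122). In line 2 alone it fell by 0.70 ± 0.11 (edgeR adjusted p = 0.00937). In line 1 it was at -0.38 ± 0.11 and not called (edgeR adjusted p = 0.0663), and in ARID1A+/- at -0.10 ± 0.14. The call over both lines was lost when either control library or either line 2 library was left out, at -0.56 to -0.54. It was also lost without the replicate block, a model term for the kit (-0.54, edgeR adjusted p = 0.103). The line 2 call was lost in the same alternatives. MYCN was between 606 and 3663 RPKM in the 7 libraries. Fibroblast markers were mixed: COL1A2 had 0 to 6 counts, but COL1A1 was at 17.1 to 171 RPKM, PDGFRA at 6.83 to 32.7 and THY1 at 17.1 to 26.3. The endothelial PECAM1 had 0 counts in every library.

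Of the 10 genes, 9 passed the filter on low values (0.5 RPKM or more on average in the 6 libraries of the control and the null lines), and all comparisons were made on 14711 genes that passed it. A gene is called where its edgeR adjusted p is under 0.05. For the mean of both ARID1A-/- lines against control, 1 of the 9 rose, IGFBP3, and 3 fell, IGFBP2, IGF1R and IRS1, beside 4.64% of all genes higher and 9.57% lower. In line 1 alone 2 rose and 2 fell, where 4.75% of all genes were higher and 8.27% lower. In line 2 alone 1 rose and 3 fell, where 5.47% of all genes were higher and 8.52% lower. The median log2 fold change of the 9 genes was -0.40 over both lines, -0.16 in line 1 and -0.55 in line 2, against 0.02, 0.01 and 0.02 over all genes. These comparisons share the control libraries.

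**Figure D1:**
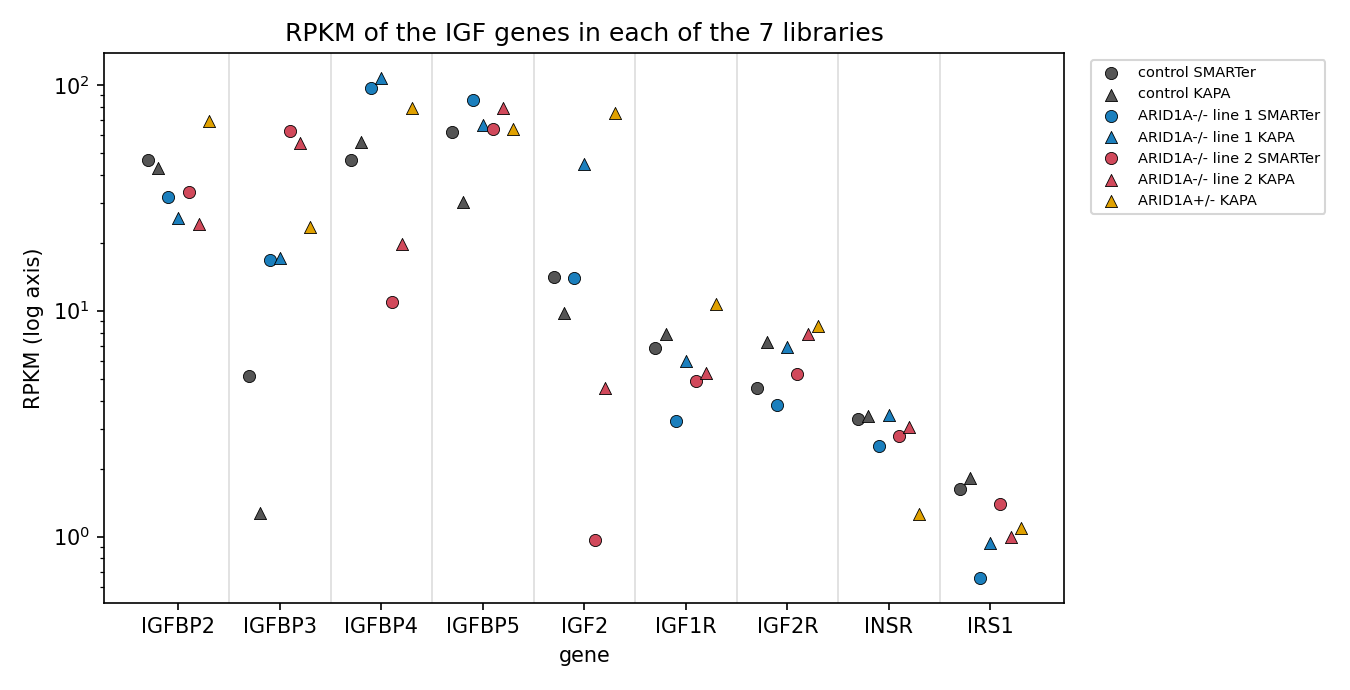
RPKM on a log axis of 9 IGF genes in the 7 libraries, 1 point per library, with colour for the line and circles for SMARTer and triangles for KAPA. IGFBP6 is left out because it was at 0 counts in 6 libraries. The 2 line 2 libraries are the highest for IGFBP3 (62.4 and 55.4 RPKM) and the lowest for IGFBP4 (10.97 and 19.8 RPKM).

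IGFBP3, the main carrier of IGFs in serum and a growth inhibitor in many cell types, was higher in every mutant library than in either control library. Its RPKM was 5.13 (SMARTer) and 1.27 (KAPA) in the control libraries, from 589 and 82 counts. It was 16.7 and 17.2 RPKM for line 1, 62.4 and 55.4 for line 2 and 23.6 for ARID1A+/-. The groups did not overlap, and the libraries of line 2 stood above all others. The log2 fold change was 3.39 ± 0.43 over both lines (edgeR adjusted p = 0.00416), 2.52 ± 0.45 in line 1 (edgeR adjusted p = 0.0158) and 4.26 ± 0.47 in line 2 (edgeR adjusted p = 0.00284). The call over both lines and that in line 2 held in all 15 alternative analyses, at 2.63 to 4.56 and 3.51 to 5.44. Without the kit term, which is also the replicate block, the line 1 difference was 2.34 and not called (edgeR adjusted p = 0.11). The size rests on the control library used: the control SMARTer library was 4.02-fold above the control KAPA library, whereas the libraries of line 1 differed 1.03-fold and those of line 2 1.13-fold. Within SMARTer the ratio of RPKM to control was 3.26 in line 1 and 12.2 in line 2, and within KAPA it was 13.5 and 43.5. The cause of the difference between the control libraries was not tested.

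IGFBP4, a binding protein that inhibits IGF action until the protease PAPPA cuts it, went opposite ways in the null lines. Its RPKM was 46.3 and 55.8 for the control, 96.8 and 107.1 for line 1, 10.97 and 19.8 for line 2 and 79.1 for ARID1A+/-. Both libraries of line 1 were above, and both of line 2 below, the control libraries. It rose in line 1 by 1.01 ± 0.20 in log2 units (edgeR adjusted p = 0.0208) and fell by 1.81 ± 0.20 in line 2 (edgeR adjusted p = 0.00295). The line 2 call held in all 15 alternatives (-2.19 to -1.48). The line 1 call was lost without either control library, at 1.11 without SMARTer and 0.90 without KAPA, and was also lost without the replicate block (1.01, edgeR adjusted p = 0.0985). Over both lines the mean difference was -0.40 ± 0.17 and not called (edgeR adjusted p = 0.17), though without the line 1 SMARTer library (-0.53) or the line 2 KAPA library (-0.59) it was. The summed RPKM of 9 fibroblast markers was 100 and 101 for the control, 224 and 246 for line 1, 65.3 and 61.9 for line 2 and 111 for ARID1A+/-. COL1A1 alone made up 60.2 and 62.6 RPKM of the control sums and 156 and 171 of those of line 1, and was at 30.3 and 19.9 in line 2 and 17.1 in ARID1A+/-. In line 2 DCN went another way, at 4.02 and 3.74 RPKM against 0.301 and 0.0326 in the control. In line 1 DCN (4.44 and 2.21), COL3A1 (6.24 and 7.80) and LUM (17.1 and 17.3) were higher than in the control, as COL1A1 was. The control had COL3A1 at 1.52 and 1.60 and LUM at 2.04 and 1.72. PDGFRB was lower in line 1, at 2.37 and 2.73 against 4.07 and 3.58 in the control. In ARID1A+/- COL1A1 was the only tested marker below both control libraries. DCN (1.75), COL3A1 (6.48), LUM (13.7), PDGFRA (32.7), PDGFRB (14.0) and THY1 (24.8) were above both there. Of 7 tested markers, 3 were called higher and 1 lower over both lines, beside 4.64% of all genes higher and 9.57% lower. Line 1 had 4 higher and 0 lower, beside 4.75% of all genes higher and 8.27% lower. Line 2 had 2 in each direction, beside 5.47% of all genes higher and 8.52% lower. The part of these markers in the IGFBP4 result was not tested.

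IGFBP2, a binding protein abundant in fetal and neural tissue, was modestly lower in both null lines and higher in ARID1A+/-. Its RPKM was 46.6 and 42.7 for the control, 31.7 and 25.6 for line 1, 33.3 and 24.2 for line 2 and 69.4 for ARID1A+/-. All 4 null libraries lay below both control libraries, and the null lines overlapped each other. It fell by 0.67 ± 0.10 in log2 units over both lines (edgeR adjusted p = 0.00847), to -0.64 ± 0.12 in line 1 (edgeR adjusted p = 0.0191) and -0.69 ± 0.12 in line 2 (edgeR adjusted p = 0.0148). The call over both lines was lost without the control SMARTer library (-0.81), without the control KAPA library (-0.54) and without the replicate block (-0.65, edgeR adjusted p = 0.213). The same removals ended the call in line 1, at -0.79 and -0.52 without the control libraries and -0.63 without the block. In line 2 it was lost without either control library (-0.84 and -0.57), without either line 2 library (-0.79 and -0.61) and without the block (-0.67).

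IGFBP5, a binding protein kept in the extracellular matrix, was at a high level in all libraries. Its RPKM was 61.9 and 30.4 for the control, 85.4 and 66.0 for line 1, 63.6 and 78.9 for line 2 and 63.5 for ARID1A+/-. The KAPA control library was the lowest, and the other 6 lay close together. The log2 difference over both lines was 0.72 ± 0.26 and did not pass the test (edgeR adjusted p = 0.126). It was called by DESeq2 (0.72, adjusted p = 0.0187), without the line 2 SMARTer library (0.99) and without the line 1 KAPA library (0.73). In line 1 it was called by DESeq2 (0.76) and without either line 2 library (0.80 and 0.80), and in line 2 without its SMARTer library (1.19). IGFBP6, which prefers IGF2 over IGF1, had 1 count in the line 1 SMARTer library and 0 in the other 6, which allows up to 3 counts or 0.0712 to 0.127 RPKM by counting error alone. It was not tested.

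**Figure D2:**
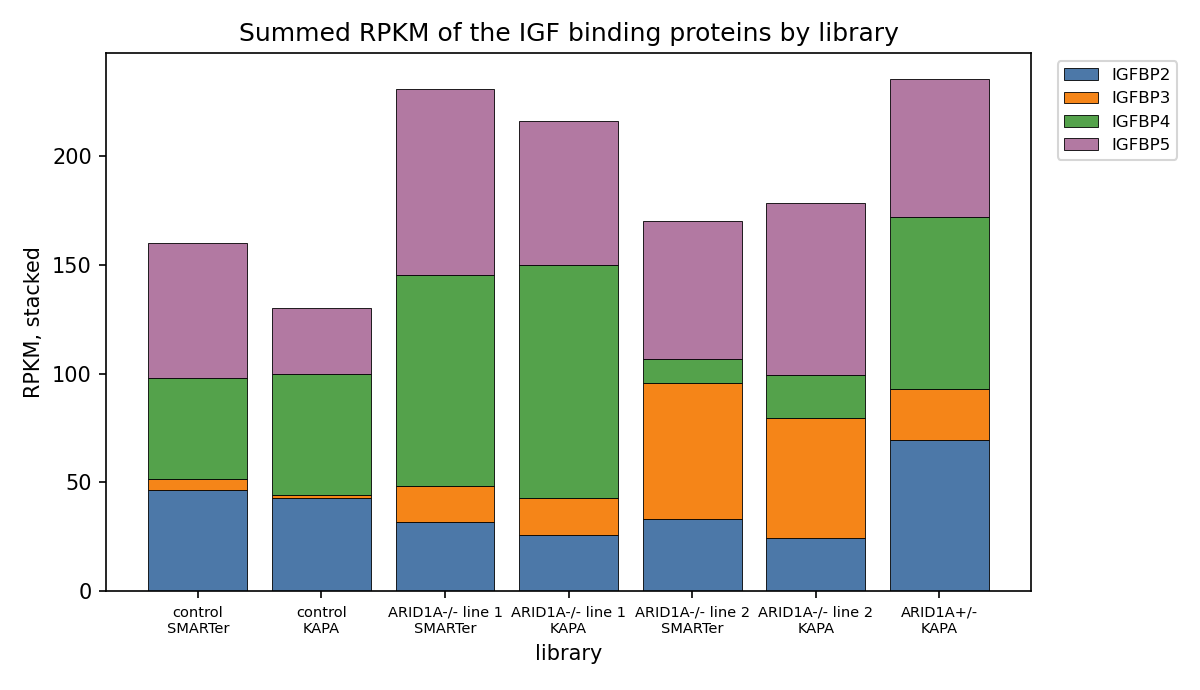
Stacked RPKM of IGFBP2, IGFBP3, IGFBP4 and IGFBP5 in each library, with the height of a bar giving their sum. IGFBP3 is 36.7% and 31.1% of the sum in line 2 and at most 10.0% elsewhere, and IGFBP4 is 6.44% and 11.1% in line 2.

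The summed RPKM of IGFBP2 to IGFBP6 was 160 and 130 for the control, 231 and 216 for line 1, 170 and 178 for line 2 and 236 for ARID1A+/-. The makeup of that sum differed more between lines than its size. IGFBP4 made up 29.0% and 42.9% of it in the control, 42.0% and 49.6% in line 1 and 33.6% in ARID1A+/-. IGFBP2 made up 29.2% and 32.8% in the control and 29.4% in ARID1A+/-, but 11.9% to 19.6% in the 4 null libraries. IGFBP5 ranged from 23.3% to 44.2%, with the control and line 2 overlapping. The sum adds RPKM of genes and does not give the amount of protein.

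IGF2 was the most variable of the genes, with a range of 5.27 in log2(RPKM + 1) over the 7 libraries, against 4.80 for IGFBP3 and 3.18 for IGFBP4. Its RPKM was 14.1 and 9.76 for the control, 14.0 and 44.5 for line 1, 0.968 and 4.57 for line 2 and 75.1 for ARID1A+/-. Both line 2 libraries were below all others, the line 1 SMARTer library lay at the control level, and ARID1A+/- was the highest. It fell by 2.61 ± 0.64 in line 2 in log2 units (edgeR adjusted p = 0.0412). That call was lost without the control SMARTer library (-1.28), without the line 2 SMARTer library (-1.76), without the replicate block (-2.21, edgeR adjusted p = 0.204), and in limma on log2(RPKM + 1) (-1.95, adjusted p = 0.0534) and on log2(RPKM + 0.1) (-2.41, adjusted p = 0.0522). In line 1 the difference was 0.89 ± 0.59 and not called (edgeR adjusted p = 0.361), and the kits did not match: line 1 minus control was -0.02 within SMARTer and 2.19 within KAPA, as log2 ratios of RPKM. Without the control SMARTer library it was 2.31 and called, and without the control KAPA library it turned to -0.14. Over both lines it was -0.86 ± 0.52 and not called (edgeR adjusted p = 0.318), turned to 0.52 without the control SMARTer library and was -1.94 and called without the control KAPA library.

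The SMARTer libraries of both null lines were lower in IGF2 than their KAPA repeats: SMARTer minus KAPA, as a log2 ratio of RPKM, was -1.67 in line 1 and -2.24 in line 2. The control differed the other way, by 0.54. The median of this kit difference over all tested genes was between -0.20 and -0.11. The counts of the read-through entry INS-IGF2, which overlaps IGF2, were 89.2% to 93.9% of those of IGF2 in every library, while INS itself was at 0. Whether the same reads were counted for both was not tested. Without knowledge of strand in the counting, IGF2 and the antisense entry IGF2-AS cannot be told apart either. IGF2-AS was at 1.10 and 0.504 RPKM for the control, 1.06 and 1.61 for line 1, 0.0259 and 0.231 for line 2 and 5.86 for ARID1A+/-, so it too was lowest in line 2 and highest in ARID1A+/-. H19, the maternally expressed RNA next to IGF2, had 36 and 15 counts for the control, 22 and 22 for line 1, 3 and 2 for line 2 and 3 for ARID1A+/- and was not tested. Its low counts in ARID1A+/- stood beside the highest IGF2, and those in line 2 beside the lowest. Set against the binding proteins, IGF2 RPKM was 8.84% and 7.49% of their sum in the control, 6.06% and 20.6% for line 1, 0.568% and 2.56% for line 2 and 31.9% for ARID1A+/-.

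**Figure D3:**
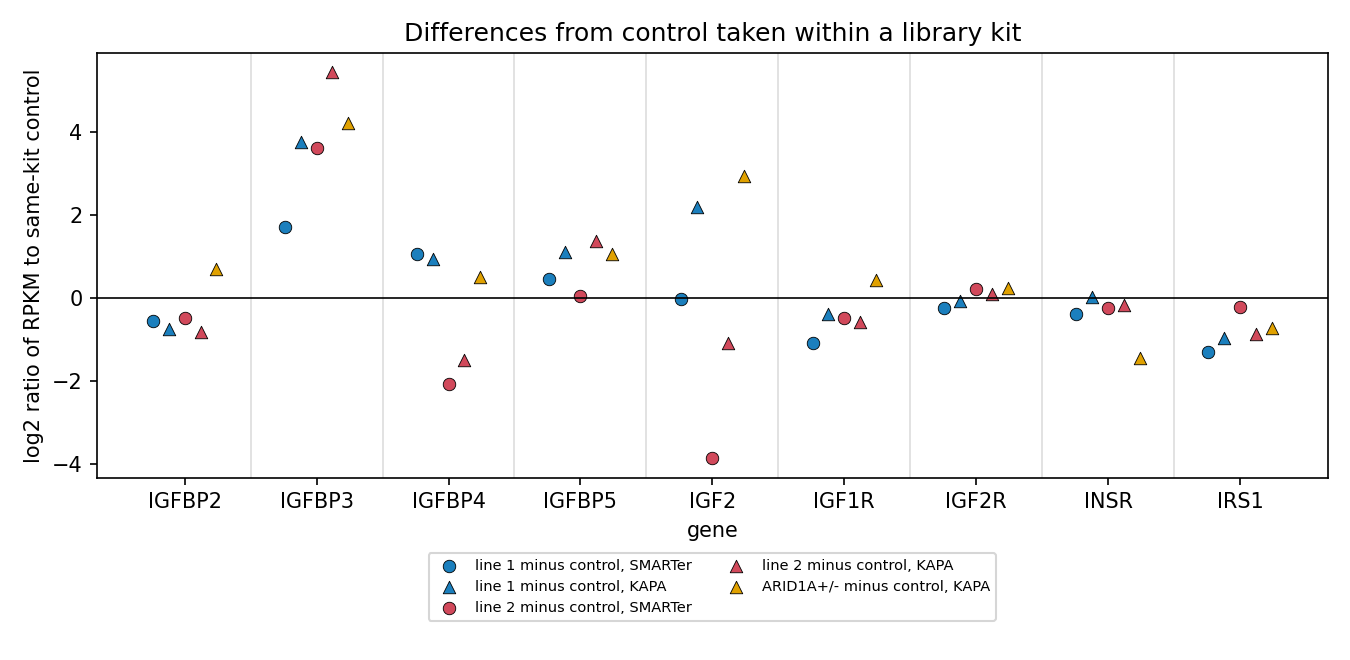
Log2 ratio of RPKM to the control library of the same kit for 9 IGF genes, 1 point per library, circles for SMARTer and triangles for KAPA. IGFBP2 lies below 0 in all 4 null libraries, and for IGF2 line 1 lies at -0.02 in SMARTer and 2.19 in KAPA.

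IGF1R, the main signalling receptor for IGFs, was lower in the null lines than in the control. Its RPKM was 6.86 and 7.91 for the control, 3.25 and 6.0 for line 1, 4.89 and 5.27 for line 2 and 10.7 for ARID1A+/-. All 4 null libraries were below both control libraries. It fell by 0.65 ± 0.16 in log2 units over both lines (edgeR adjusted p = 0.0397). In the single lines it was at -0.72 ± 0.19 (line 1, edgeR adjusted p = 0.0507) and -0.57 (line 2, edgeR adjusted p = 0.0866), past the threshold in neither. The call over both lines was lost without the control SMARTer (-0.51), control KAPA (-0.80) or line 2 KAPA library (-0.57), without the replicate block (-0.63, edgeR adjusted p = 0.163), with library totals as the only scaling (-0.63, edgeR adjusted p = 0.0538) and in limma at both pseudocounts (-0.54 and -0.63). In line 1 alone it was called by DESeq2 (-0.72, adjusted p = 0.00849), with no filter on low values (-0.69) and when the line 1 KAPA library was left out (-1.06), or when either line 2 library was (-0.73 and -0.73). In line 2 alone it was called by DESeq2 (-0.58) and without either line 1 library (-0.57 and -0.57).

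IRS1, the adaptor, was at a low level and lower still in the null lines. Its RPKM was 1.63 and 1.82 for the control, 0.658 and 0.934 for line 1, 1.40 and 0.994 for line 2 and 1.10 for ARID1A+/-. All 5 mutant libraries were below both control libraries, with the line 2 SMARTer library the nearest to them. It fell by 0.83 ± 0.21 in log2 units over both lines (edgeR adjusted p = 0.0435) and was lower in line 1 too, at -1.11 ± 0.25 (edgeR adjusted p = 0.034), and was at -0.55 in line 2 and not called (edgeR adjusted p = 0.186). Over both lines the call was lost without the control SMARTer (-0.93), control KAPA (-0.76) or line 2 KAPA library (-0.67), without the block (-0.83, edgeR adjusted p = 0.129), with library totals alone (-0.82) and in limma (-0.46 and -0.77). In line 1 it was lost without the control SMARTer (-1.21), control KAPA (-1.04) or line 1 SMARTer library (-0.83), without the block (-1.12) and in limma (-0.60 and -1.04).

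IGF2R and INSR were not called in either null line. IGF2R RPKM was 4.53 and 7.30 for the control, 3.81 and 6.92 for line 1, 5.23 and 7.84 for line 2 and 8.56 for ARID1A+/-. Its libraries separated by kit and not by line: SMARTer minus KAPA was -0.69 in the control, -0.86 in line 1 and -0.58 in line 2. With the kit in the model, the difference over both lines was -0.02 ± 0.10 in log2 units (edgeR adjusted p = 0.929). INSR RPKM was 3.30 and 3.42 for the control, 2.50 and 3.45 for line 1, 2.77 and 3.04 for line 2 and 1.25 for ARID1A+/-. The null libraries overlapped the control, at -0.22 ± 0.13 over both lines (edgeR adjusted p = 0.31), and the ARID1A+/- library lay below all others. On the RPKM scale IGF1R was 2.08 and 2.31 times INSR in the control, 1.30 to 1.76 times in the 4 null libraries and 8.56 times in ARID1A+/-.

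**Figure D4:**
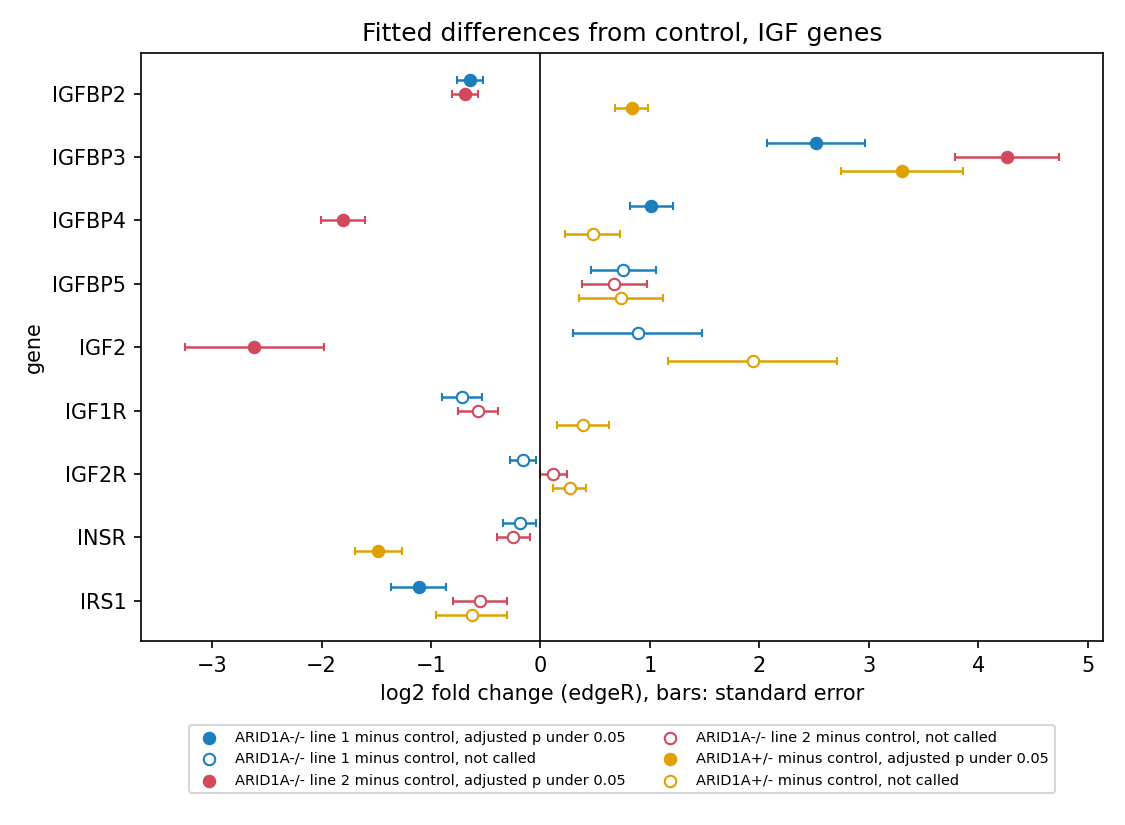
Fitted log2 fold change against control of 9 IGF genes in ARID1A-/- line 1, ARID1A-/- line 2 and ARID1A+/-, with bars for the standard error and filled points where the edgeR adjusted p is under 0.05. IGFBP4 lies at 1.01 in line 1 and -1.81 in line 2, and INSR is called in ARID1A+/- at -1.48.

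The null lines were then set against each other. Among the 9 genes 2 were higher in line 1, IGFBP4 and IGF2, and 1 was lower, IGFBP3, where 5.71% of all genes were higher and 7.1% lower in line 1. IGFBP4 differed by 2.82 ± 0.21 in log2 units (line 1 minus line 2, edgeR adjusted p = 0.000966), and this held in all 15 alternatives (2.50 to 3.20). IGF2 differed by 3.50 ± 0.63 (edgeR adjusted p = 0.0162) and lost its call only without the replicate block (3.43, edgeR adjusted p = 0.0785), among the alternatives run. Within a kit the log2 ratio of RPKM was 3.85 for SMARTer and 3.28 for KAPA, so line 1 was above line 2 in both kits. Against the control, line 2 was lower in both kits (-3.87 for SMARTer and -1.09 for KAPA), and line 1 was level with it in SMARTer and higher in KAPA, as given above. IGFBP3 differed by -1.75 ± 0.41 (edgeR adjusted p = 0.0391), a call lost without the line 2 KAPA library (-1.31), in DESeq2 (-1.73, adjusted p = 0.0927), in limma on log2(RPKM + 0.1) (-1.79) and without the block (-1.76, edgeR adjusted p = 0.191). The median of the 9 genes was 0.04, against 0.00 over all genes. For IRS1 the difference was -0.56 and not called (edgeR adjusted p = 0.205).

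The single ARID1A+/- library was compared with the control in a fit of all 7 libraries, in which its spread is assumed to be that of the other groups. IGFBP2 and IGFBP3 were higher and INSR was lower, 2 and 1 of the 9 genes, where 1.15% of all genes were higher and 2.15% lower. IGFBP3 was higher by 3.30 ± 0.56 in log2 units (edgeR adjusted p = 0.0312), and by 4.21 as the log2 ratio of RPKM to the KAPA control alone. It lost the call without the replicate block (2.77, edgeR adjusted p = 0.197). INSR was at -1.48 ± 0.21 (edgeR adjusted p = 0.0201), a call lost without the control SMARTer (-1.41) or control KAPA library (-1.66), without the block (-1.46) and in limma (-1.03 and -1.46). IGFBP2 was at 0.83 ± 0.15 (edgeR adjusted p = 0.0393). The call was lost in 9 of the 14 alternatives that held a test. Among them were the removal of the control SMARTer (0.74), control KAPA (0.99), line 2 SMARTer (0.80) or line 2 KAPA library (0.81) and of the replicate block (0.59). IGF2, although the highest of the 7 libraries, was at 1.94 ± 0.77 and not called (edgeR adjusted p = 0.285), with a ratio of 2.94 to the KAPA control alone on the log2 RPKM scale. It was called without the control SMARTer library (2.99). The median of the 9 genes was 0.48, against 0.00 over all genes.

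Against both null lines, 4 of the 9 genes were higher in ARID1A+/-, IGFBP2, IGFBP4, IGF2 and IGF1R, and 1, INSR, was lower, where 7.54% of all genes were higher and 5.27% lower. This comparison was added after the values were seen. IGFBP2 was higher by 1.50 ± 0.14 in log2 units (edgeR adjusted p = 0.00125), so the heterozygous library and the null lines lay on opposite sides of the control for this gene. That call was lost without the replicate block (1.24, edgeR adjusted p = 0.0599). INSR was at -1.26 ± 0.20 (edgeR adjusted p = 0.00913) and was called in all 14 alternatives (-1.33 to -0.88). IGF2 was higher by 2.80 ± 0.60 (edgeR adjusted p = 0.0278), a call lost in DESeq2 (2.80, adjusted p = 0.064), in limma on log2(RPKM + 0.1) (2.79) and without the block (3.09). IGF1R was higher by 1.04 ± 0.21 (edgeR adjusted p = 0.0228), and was not called without the control SMARTer (1.00), control KAPA (0.98) or line 2 KAPA library (0.90), without the block (1.14) or in limma (0.86 and 0.97). IGFBP4 was higher by 0.88 ± 0.22 (edgeR adjusted p = 0.0496), but line 1 and line 2 stood on either side of the ARID1A+/- library, and the call was lost in 7 of 14 alternatives, such as without the control SMARTer (0.85) or KAPA library (0.84) or the replicate block (0.99). IGFBP3 showed no called difference (-0.09 ± 0.48, edgeR adjusted p = 0.931).

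The rest of the pathway was followed in lists named by role. Among adaptors and phosphatases at the receptor, 1 of 13 tested genes rose and 5 fell over both null lines, with a median log2 fold change of -0.01, beside 4.64% of all genes higher and 9.57% lower. DESeq2 called 6 of the 13 and limma 3 at either pseudocount. GRB10, an adaptor that inhibits IGF1R and INSR signalling, was at 0.907 and 1.88 RPKM for the control, 0.0156 and 0.0253 for line 1, 0.356 and 0.507 for line 2 and 0.317 for ARID1A+/-. All 5 mutant libraries were below both control libraries, and line 1 kept only 4 and 5 counts. GRB10 fell by 3.83 ± 0.25 in log2 units over both lines (edgeR adjusted p = 0.000326). In line 2 it was at -1.66 ± 0.26 (edgeR adjusted p = 0.00953), and it was not called without the control SMARTer (-1.91), control KAPA (-1.43) or line 2 KAPA library (-1.45), without the block (-1.70) or in limma (-0.71 and -1.42). In ARID1A+/- GRB10 was not called without the control SMARTer (-2.52) or control KAPA library (-2.05), without the block (-2.14) or in limma (-0.96 and -2.01). IRS2, the relative of IRS1, was at 6.37 and 2.26 RPKM for the control, 1.11 and 0.664 for line 1, 5.04 and 2.01 for line 2 and 1.06 for ARID1A+/-. The libraries of line 1 and ARID1A+/- and the line 2 KAPA library lay below both control libraries, and the line 2 SMARTer library lay between them. IRS2 fell by 2.15 ± 0.21 in line 1 (edgeR adjusted p = 0.00192) and differed between the lines by -1.85 ± 0.21 (edgeR adjusted p = 0.00363). Over both lines it fell by 1.23 ± 0.17 (edgeR adjusted p = 0.00548), a call lost without the control SMARTer library (-1.01). SOS2, an exchange factor that activates RAS, rose by 0.65 ± 0.11 over both lines (edgeR adjusted p = 0.0104), which was lost without the control SMARTer (0.62) or KAPA library (0.65). Without the replicate block the calls of IRS2 (-1.32 over both lines, -2.29 in line 1 and -1.94 between the lines) and SOS2 (0.65) were lost too, and IRS2 over both lines was also not called in limma on log2(RPKM + 1) (-0.79).

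**Figure D5:**
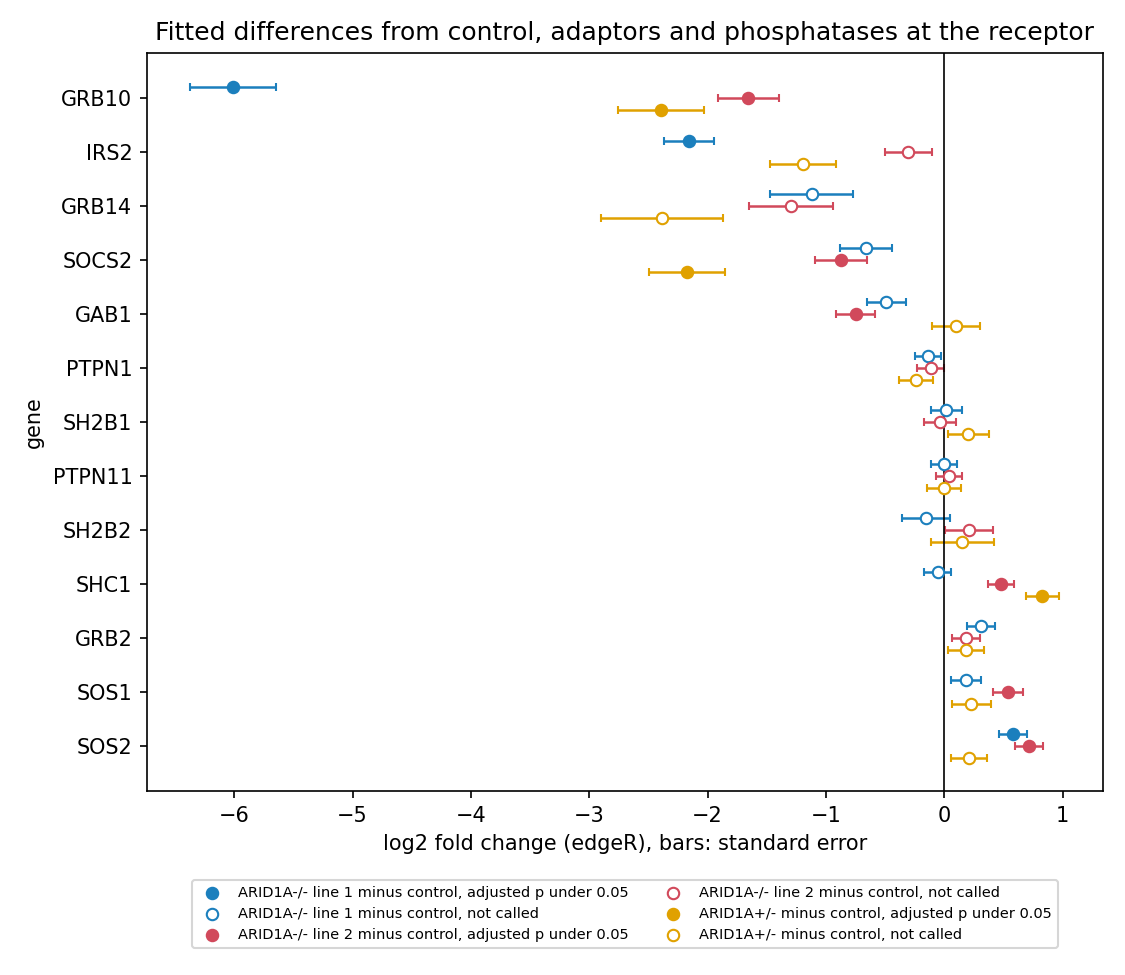
Fitted log2 fold change against control of 13 adaptors and phosphatases at the receptor in ARID1A-/- line 1, ARID1A-/- line 2 and ARID1A+/-, with bars for the standard error and filled points where the edgeR adjusted p is under 0.05. GRB10 is lowest in line 1 at -6.01 and is called in all 3, and IRS2 is called in line 1 at -2.15.

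In the PI3K-AKT-mTOR arm 0 of 25 genes were called over both lines by edgeR, with 6 at an unadjusted p under 0.05, 4 called by DESeq2 and 0 by limma at either pseudocount. The list's median was 0.12, and 4.64% of all genes were called higher and 9.57% lower over both lines. In line 2 alone 3 of the 25 fell, where 8.52% of all genes were lower: PIK3R2, a regulatory subunit of PI3K, at -0.72 ± 0.12 (edgeR adjusted p = 0.0111), AKT1, the kinase, at -0.55 ± 0.12 (edgeR adjusted p = 0.0273), and FOXO4, a transcription factor held inactive by AKT, at -1.04 ± 0.24 (edgeR adjusted p = 0.0343). PIK3R2 also differed between the lines, by 0.99 ± 0.12 (line 1 minus line 2, edgeR adjusted p = 0.0043), a call lost without the replicate block (0.99, edgeR adjusted p = 0.14). All 3 calls against control were lost without the control SMARTer (-0.68, -0.56 and -1.17), control KAPA (-0.80, -0.58 and -0.95) or line 2 KAPA library (-0.73, -0.65 and -0.77), and those of PIK3R2 (-0.75) and AKT1 (-0.48) also without the line 2 SMARTer library. That of FOXO4 was lost in limma on log2(RPKM + 0.1) as well (-0.98, adjusted p = 0.0529). In the RAS-MAPK arm 0 of 12 genes were called over both lines by edgeR, with 2 at an unadjusted p under 0.05 and 0 called by DESeq2 or limma. Beside 4.64% of all genes higher and 9.57% lower over both lines, 1 of 10 genes that respond to FOXO factors rose and 1 fell. These were CDKN1B, a cell cycle inhibitor, at 0.69 ± 0.15 (edgeR adjusted p = 0.0297), and BCL2L11, which promotes cell death, at -0.83 ± 0.15 (edgeR adjusted p = 0.0139). Neither was called without the control SMARTer (0.83 and -0.73) or control KAPA library (0.53 and -0.95), nor CDKN1B without the line 2 KAPA library (0.55). Without the replicate block none of these 5 genes was called, at -0.73 for PIK3R2, -0.56 for AKT1, -1.04 for FOXO4, 0.69 for CDKN1B and -0.84 for BCL2L11.

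Other ligands and binding proteins of the family were mostly silent. IGF1 and INS had 0 counts in all 7 libraries. IGFBPL1, a binding protein-like gene of developing neurons, was at 118 and 112 RPKM for the control, 80.4 and 103 for line 1, 79.8 and 83.6 for line 2 and 52.5 for ARID1A+/-. All mutant libraries were below the control libraries. It fell by 0.53 ± 0.14 in line 2 in log2 units (edgeR adjusted p = 0.0479) and was at -1.15 ± 0.18 in ARID1A+/- (edgeR adjusted p = 0.0277). The line 2 call was lost in 9 of 15 alternatives: without either control library (-0.40 and -0.68) or either line 2 library (-0.55 and -0.54), in limma (-0.49 and -0.49), with library totals alone (-0.50), at a mean RPKM of at least 2 (-0.54) and without the replicate block (-0.54). In ARID1A+/- the call was lost without either control library (-1.05 and -1.35), without the line 2 KAPA library (-1.14) and without the block (-1.17). Over both lines 4.64% of all genes were higher and 9.57% lower, and among 3 tested proteases and inhibitors of the binding proteins 0 rose and 1 fell. That was STC2, a secreted inhibitor of PAPPA, with 4.72 and 3.34 RPKM for the control, 1.78 and 1.19 for line 1, 4.06 and 1.54 for line 2 and 2.32 for ARID1A+/-. The line 2 SMARTer library lay within the range of the control for STC2. PAPPA itself had only 7 to 38 counts (0.0154 to 0.0794 RPKM) in the 7 libraries and did not pass the filter. STC2 fell by 1.06 ± 0.19 over both lines (edgeR adjusted p = 0.0164), at -1.45 in line 1 (edgeR adjusted p = 0.0117) and -0.67 and not called in line 2 (edgeR adjusted p = 0.103). The call over both lines was lost without the control SMARTer (-1.33) or KAPA library (-0.82) and without the replicate block (-0.99), and so was that in line 1 (-1.70, -1.20 and -1.43).

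Neighbours on the chromosome were taken from the order of RefSeq genes in GRCh38.p14. On either side of IGF2 the nearest tested genes MRPL23, CTSD, CD81 and TSSC4 were called in none of the comparisons by edgeR. Near IGFBP3, which rose, ADCY1 fell by 2.01 ± 0.18 in log2 units over both lines (edgeR adjusted p = 0.00106), and SEPT7P2, TNS3 and HUS1 were not called over both lines. In ARID1A+/-, where IGFBP3 was also higher, ADCY1 was at -0.37 ± 0.28 and not called. TNS3 differed between the null lines by 0.84 ± 0.14 (line 1 minus line 2, edgeR adjusted p = 0.0143). That call was lost without the line 2 KAPA library and without the replicate block. Near the neighbours IGFBP2 and IGFBP5, TNS1 fell by 2.32 ± 0.21 in line 2 (edgeR adjusted p = 0.00128) and was at -0.18 ± 0.19 in line 1 and not called (edgeR adjusted p = 0.582). The lines differed by 2.14 ± 0.21 (line 1 minus line 2, edgeR adjusted p = 0.00218). The mean of both lines was at -1.25 ± 0.16 (edgeR adjusted p = 0.00462), a call lost without the control SMARTer (-1.40) or KAPA library (-1.12) and without the replicate block (-1.23). In the same region RPL37A, SMARCAL1 and DIRC3 were not called over both lines.

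Genes whose level followed the 3 most variable members were found by Pearson r of log2(RPKM + 1) over the 7 libraries among 11517 genes, as a description. For IGF2 the closest were INS-IGF2 (r = 1.00), TEAD2 (r = 0.976) and NVL (r = 0.974), and 94 genes passed 0.9. TEAD2, a transcription factor of the TEA domain family, was at 10.4 and 9.71 RPKM for the control, 9.82 and 29.0 for line 1, 2.36 and 4.01 for line 2 and 69.9 for ARID1A+/-. Like IGF2 it was lowest in line 2, highest in ARID1A+/-, and higher in the KAPA than in the SMARTer library of line 1. For IGFBP3 the closest were MAPK8IP2 (r = 0.977), NCAM1 (r = 0.967) and ZNF821 (r = 0.964), with 66 genes past 0.9. For IGFBP4 they were VSNL1 (r = 0.990), SDHC (r = 0.983) and SCARA3 (r = 0.982), with 111 past 0.9. Among the members themselves IGF2 and IGFBP4 had r = 0.876 and IGFBP3 and IGFBP4 had r = -0.493. The 7 libraries fall into 4 lines and 2 kits, which all these correlations share.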

How the data were processed

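Per the submitters' processing notes, reads (75 bases, single-end per the labels' protocols) were mapped to hg19 by HISAT2 2.1.0. How they were counted (program, annotation, strand) is not given in the sources used here, and the labels name both polyadenylated RNA and removal of ribosomal RNA. The authors deposited whole-number counts and RPKM values for 28517 entries per library. The deposited RPKM equals the count divided by entry length and library total to within 0.000501%.

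Counts were tested with edgeR 4.0.16 (quasi-likelihood F test, TMM with full library totals, R 4.3.3) on 14711 genes averaging 0.5 RPKM or more in the 6 libraries of the control and null lines, with terms for group and kit. This left 2 residual degrees of freedom, and a standard error is the log2 fold change over the root of its F statistic. Adjustment was by Benjamini-Hochberg over all genes tested. ARID1A+/- came from a fit of all 7 libraries. The kit is the replicate block, with 1 library of each replicated group per kit: differences between kits correlated at 0.51, 0.63 and 0.45 between pairs of groups over the 14711 genes, so libraries of a kit deviated together.

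Alternatives were DESeq2 1.42.0, limma 3.58.1 on log2(RPKM + 1) and log2(RPKM + 0.1), RLE or no scaling factors, other filters (none, or a mean RPKM of at least 2), no kit term, all 7 libraries in 1 fit, each library left out, and KAPA libraries alone. All 10 members are named, with up to 3 called genes of smallest p from each list, 3 most alike genes for each of the 3 most variable members, and the 2 nearest tested genes on each side of IGF2, IGFBP3, and IGFBP2 with IGFBP5. The members and lists were chosen with earlier results of these data known, and the list counts are no independent evidence. H19, IGF2-AS, INS, IGF1 and marker genes were named for context. Some listed genes are not reported here.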

Additional observations from a re-analysis of the deposited data

Results flagged for a closer look

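For 3 genes the difference from control was not the same in the null lines, by a test of line 1 against line 2 itself (edgeR, adjusted over 14711 genes). IGFBP4 differed by 2.82 on the log2 scale (line 1 minus line 2), with the lines on opposite sides of the control. IGF2 differed by 3.50, with line 2 below the control and the libraries of line 1 at and above it. IGFBP3 differed by -1.75, with both lines above the control.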

How the results depend on the processing

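Over both null lines against control, 4 members were called. DESeq2, RLE scaling, both other filters and the 7-library fit kept that number within 1.5 times, but 2 were called in limma on log2(RPKM + 1), 2 in limma on log2(RPKM + 0.1), 2 with library totals alone and 1 without the replicate block. All genes called rose from 2090 to 3147 with no filter on low values and dropped to 592 without the block. The block also mattered elsewhere: without it 475 genes and 0 members were called in line 1, 519 and 2 in line 2, 404 and 1 between the lines, 70 and 0 in ARID1A+/- against control and 706 and 1 against the null lines. Calls of single genes lost without it are given beside those genes. With the block the members called were 4, 4, 3, 3 and 5. At a mean RPKM of at least 2, 1234 genes were called in line 1, 287 in ARID1A+/- against control and 1216 against the null lines. For ARID1A+/- against control, 855 genes were called by DESeq2, 864 with no filter, 263 and 298 by limma at the pseudocounts 1 and 0.1, where 1 member was called in each. Against the null lines limma called 3 and 2 members.

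Leaving out 1 library gave 348 to 3570 genes and 1 to 5 members over both lines, 436 to 3028 and 1 to 6 in line 1, 408 to 3738 and 2 to 5 in line 2, 772 to 2407 and 2 to 3 between the lines, 57 to 1180 and 1 to 3 in ARID1A+/- against control, and 1181 to 3011 and 3 to 5 against the null lines. The lowest counts against control came without a control library, which leaves 1 control library whose spread is assumed to be that of the other groups.

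Directions that turned were all of differences that were not called. IGF2R over both lines was at 0.0066 with no filter and at -0.059 to 0.021 with a library left out. IGF2 ran from -1.94 to 0.52 over both lines and from -0.14 to 2.31 in line 1. Between the lines IGFBP2 ran from -0.033 to 0.16, IGFBP5 from -0.38 to 0.68, IGF1R from -0.49 to 0.17 and INSR from -0.093 to 0.21. For ARID1A+/- minus the null lines, IGFBP5 was at -0.020 and -0.019 in limma, -0.039 with library totals alone, -0.24 without the block and -0.14 to 0.50 with a library left out, where IGFBP3 ran from -0.33 to 0.27 and IRS1 from -0.083 to 0.47. The cause was not tested. For members and other named genes together, 1238 of the alternative values kept direction and call, 224 lost a call, 20 gained one, 22 turned and 2 RPKM ratios moved beyond 1 SE. Precision is limited by 2 libraries a group and 1 of ARID1A+/-.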
